A study of Rattus norvegicus with 71 samples.

Results

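The genes described here were 39 markers of radial glia, neural stem cells and astrocytes, taken by symbol from the 17494 genes of a count table of neonatal rat brain. They were read in 3 groups: 13 stem cell and radial glia genes, 18 astrocyte genes, and 8 genes that both kinds of cell use. All 39 were present in the table and all passed the filter on low values in every comparison.

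Radial glia are the stem cells of the developing forebrain. They carry intermediate filaments such as nestin and vimentin, are kept from differentiating by Notch signalling, and give rise first to neurons and then, around birth in rodents, to astrocytes. Nuclear factor I proteins and Id proteins take part in that switch, and young astrocytes then take up glutamate, couple to each other through connexins and place water and potassium channels on their endfeet. A slice of newborn brain holds both kinds of cell, and their transcripts were read side by side.

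Polyadenylated RNA was sequenced from 71 wild-type Sprague-Dawley offspring of 27 dams on postnatal day 2, from a coronal slice with the hippocampus and the cortical and subcortical tissue beside it. Dams had been immunised before mating with peptides of brain proteins in Freund's adjuvant, and control dams with adjuvant and saline, so every animal described here had a mother that received adjuvant. The groups were Control (24 animals, 7 litters), CRMP1+CRMP2 (8 animals, 4 litters), LDHA/B+CRMP1+STIP1 (25 animals, 9 litters), CRMP1+GDA (6 animals, 3 litters) and STIP1+NSE (8 animals, 4 litters), named by the antigens, and the last 4 together made up the 47 MARA-AB animals, that is, offspring exposed to maternal autoantibodies. The study processed and sequenced its libraries in 2 batches, which no label names and which were read here from the kind of sample title: batch 1 (titles with IgG, FcRn or RNA) held 12 Control and 16 LDHA/B+CRMP1+STIP1 animals, and batch 2 (titles with MAR_C3) held the other 12 Control and 9 LDHA/B+CRMP1+STIP1 animals and all animals of the other patterns.

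Each library held 24880182 to 36234952 counts. In 13 libraries, 12 of them exposed animals of batch 2, genes of the pineal gland summed to over 20 CPM (counts scaled to the library total) or posterior Hox genes to over 4 CPM. These libraries are called the libraries that stand apart, and results that rest on them are given without them too. Littermates share a dam, so p-values that count animals as replicates do not cover differences between litters. In a bulk sample, fewer cells of a type and less RNA per cell cannot be told apart.

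Notch signalling joins several of the stem cell genes. Notch1, Notch2 and Notch3 are receptors, and Hes1 and Hes5 are repressors that the receptors switch on through the DNA-binding protein RBPJ, whose core letters are TGGGAA. The 250 bases before the start of both Hes genes are shown because these are the textbook targets of the pathway, with the same window of Gfap, the astrocyte filament gene, beside them. Capitals mark TGGGAA on either strand, and the sequences are from RefSeq (build GRCr8), 5′ to 3′ on the strand of the gene.

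Hes5 (chr5:170804327-170804576, plus strand): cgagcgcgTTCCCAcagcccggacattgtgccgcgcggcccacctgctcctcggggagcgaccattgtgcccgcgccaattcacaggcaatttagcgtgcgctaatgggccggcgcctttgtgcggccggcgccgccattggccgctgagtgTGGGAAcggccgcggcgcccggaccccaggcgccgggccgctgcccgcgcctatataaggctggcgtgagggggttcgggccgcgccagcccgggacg
Hes1 (chr11:84213046-84213295, minus strand): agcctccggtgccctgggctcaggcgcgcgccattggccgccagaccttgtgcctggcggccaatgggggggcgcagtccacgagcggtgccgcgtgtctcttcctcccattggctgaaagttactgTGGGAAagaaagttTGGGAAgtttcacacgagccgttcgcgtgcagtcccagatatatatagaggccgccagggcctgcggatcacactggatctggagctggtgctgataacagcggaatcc
Gfap (chr10:88361662-88361911, minus strand): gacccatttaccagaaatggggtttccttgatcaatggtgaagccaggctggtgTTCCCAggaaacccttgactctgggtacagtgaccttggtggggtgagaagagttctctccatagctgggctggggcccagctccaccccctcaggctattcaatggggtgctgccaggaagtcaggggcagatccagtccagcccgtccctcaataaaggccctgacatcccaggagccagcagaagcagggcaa

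In Hes1 the letters occurred 2 times, starting 123 and 109 bases before the gene, and in Hes5 2 times, starting 242 and 98 bases before it. The Gfap window held 1 match, 196 bases before the start. Promoter windows were on hand for 37 of the 39 members, 46 windows in all, and 13 of these (28.3%) held TGGGAA, against 22.1% of the 33469 windows of all genes. TTGGC, the core of the nuclear factor I site, was in 27 member windows (58.7%), against 40.3% of all windows, and CACGNG, a site of Hes proteins, in 30.4% against 22.5%. The SOX letters ACAAT were in 17.4% of member windows against 30%, and TATAAA in 6.52% against 12.9%. A match to such short letters is a description of the window and not a binding site.

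Levels differed widely between members. Per kilobase of exon, Fabp7, the fatty acid binding protein of radial glia, stood highest, with a mean of 786 ± 149 RPKM (CPM per kilobase; SD, n = 71). Next came Ptn, a secreted growth factor of radial glia and astrocytes, at 528 ± 65.9 RPKM, and Apoe, the lipid carrier that astrocytes secrete, at 399 ± 136 RPKM. Fabp7 stood above Ptn by more than their SDs together, while Ptn and Apoe did not differ beyond their spread. Among the stem cell genes Vim, an intermediate filament, followed at 138 ± 33.5 RPKM and Sox2, a transcription factor of stem cells, at 46.4 ± 10.9 RPKM. Nes, Notch3 and Tnfrsf19 lay close together at 12.54 ± 3.00, 12.2 ± 2.12 and 12.6 ± 2.14 RPKM, and these did not differ beyond their spread. The lowest members were Notch2 at 4.44 ± 1.21 RPKM and Gjb6, the gene of connexin 30, at 3.46 ± 2.21 RPKM. Gjb6 was also the most variable member, with a coefficient of variation of 63.8% and a range of 0.0800 to 17.5 CPM, and it was the 1 member below 1 CPM in some animals. Mfge8, a secreted bridging protein, was the steadiest, with a coefficient of variation of 10.3%. The median RPKM was 12.2 over the stem cell genes, 37.6 over the astrocyte genes and 44.7 over the shared genes.

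Most calls among these genes were between the sequencing batches, and few were between exposed and Control animals. Within Control animals, 22 of the 39 members passed the threshold of a false discovery rate (FDR) under 0.1 between batches (edgeR quasi-likelihood test, Benjamini-Hochberg adjustment), 17 higher and 5 lower in batch 2. Of all 12565 genes tested, 41.5% passed, 21.3% higher and 20.2% lower. The members' share was 56.4%, with 43.6% higher and 12.8% lower. Each litter lay within 1 batch, so the comparison was of 3 litters with 4. With counts summed per litter 12 members passed, and the calls over all genes fell as well (last section).

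Nes, the gene of the filament protein nestin that is widely used to mark neural stem cells, fell in batch 2. Control animals ranged from 75.2 to 113 CPM (median 95.6) in batch 1 and from 51.1 to 76.5 CPM (median 62.2) in batch 2. The ranges met only at their ends, and the log2 fold change was -0.59 ± 0.06 (SE, edgeR adjusted p = 6.59e-08). Hopx, which marks outer radial glia and quiescent stem cells, went the other way. It ranged from 3.06 to 7.62 CPM (median 4.35) in batch 1 and from 6.91 to 14.4 CPM (median 8.94) in batch 2, with a log2 fold change of 1.00 ± 0.15 (edgeR adjusted p = 7.96e-06). So within the stem cell list 1 marker fell while another rose, and both passed in every alternative run.

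Of the other stem cell genes, Hes5 rose by 0.40 ± 0.07 (edgeR adjusted p = 9.82e-05), from 15.8 to 22.2 CPM in batch 1 to 20.5 to 28.5 CPM in batch 2. Hes1, the other Notch target shown above, did not pass, with 7.19 to 12.9 CPM in batch 1 and 6.91 to 12.8 CPM in batch 2 and a log2 fold change of 0.03. Sox2 (0.49 ± 0.11), Fabp7 (0.29 ± 0.07), Notch2 (0.27 ± 0.09) and Sox9, a transcription factor that radial glia and astrocytes both carry (0.19 ± 0.08), rose too. Notch1 (-0.19 ± 0.09), Notch3 (0.09), Pax6, a cortical patterning factor (0.14), Tnfrsf19, a receptor of the tumour necrosis factor family (-0.14), and Vim (0.27 ± 0.14) did not pass. In all, 6 of 13 stem cell genes rose and 1 fell, with a median log2 difference of 0.19, while the median over all genes was 0.00.

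Among the astrocyte genes, 7 of 18 rose and 3 fell, with a median of 0.21. Gfap ranged from 20.9 to 84.2 CPM (median 43.96) in batch 1 and from 55.9 to 124 CPM (median 74.8) in batch 2, and it rose by 0.82 ± 0.18 (edgeR adjusted p = 0.00139) with overlapping ranges. Clu, the secreted chaperone clusterin, ranged from 82.03 to 127 CPM (median 107) in batch 1 and from 106 to 357 CPM (median 178) in batch 2. It rose by 0.85 ± 0.13 (edgeR adjusted p = 2.58e-05). Apoe rose by 0.75 ± 0.14, from 200 to 549 CPM in batch 1 to 427 to 831 CPM in batch 2. Fgfr3, a growth factor receptor of young astrocytes (0.33 ± 0.07), Ndrg2 (0.36 ± 0.07), Atp1b2, a sodium pump subunit (0.30 ± 0.07), and Sparc, a matrix glycoprotein (0.35 ± 0.13), rose as well.

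Among the astrocyte genes 3 fell. Slc1a3, the glutamate transporter GLAST (-0.34 ± 0.09), Glul, glutamine synthetase (-0.18 ± 0.07), and Kcnj10, the potassium channel Kir4.1 (-0.25 ± 0.11), were lower in batch 2. None of the 3 passed with counts summed per litter, and Slc1a3 alone passed with litter as a random effect. Slc1a2, the glutamate transporter GLT-1 (-0.23 ± 0.12), and Aldh1l1, a folate enzyme (-0.14), lay below 0 without passing. Slc1a3 ranged from 312 to 475 CPM (median 382) in batch 1 and from 194 to 430 CPM (median 303) in batch 2. Aqp4, the water channel of endfeet (0.20), Gja1, connexin 43 (0.22), Gjb6 (0.55), S100b, a calcium-binding protein (0.21), Sparcl1 (0.15) and Slc4a4, a bicarbonate transporter (0.00), did not pass.

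Among the shared genes the regulators split. Id4 and Id3, inhibitors of basic helix-loop-helix factors, rose by 0.96 ± 0.18 and 0.74 ± 0.11. Id4 ranged from 24.1 to 101 CPM (median 59.9) in batch 1 and from 50.0 to 138 CPM (median 116) in batch 2. Nfia, a factor that starts astrocyte formation, fell by 0.44 on the log2 scale (SE 0.09, edgeR adjusted p = 0.000279), from 39.9 to 85.6 CPM in batch 1 to 34.2 to 48.1 CPM in batch 2. Its relatives Nfib (-0.23) and Nfix (-0.07) did not pass. Ednrb, an endothelin receptor (0.39 ± 0.17), and Mfge8 (0.12 ± 0.05) rose, and Ptn (-0.13) did not pass.

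The LDHA/B+CRMP1+STIP1 animals gave a second look at the same batches, with no animal in common with the Control comparison. There 25 members passed (64.1%), 19 higher and 6 lower in batch 2, where 41.3% of 12533 genes passed, 21.4% higher and 19.9% lower. Without the libraries that stand apart, 3 of the 9 batch 2 animals here, 15 members passed, and the share over all genes is not given for that fit. With counts summed per litter 16 members passed, and the calls over all genes fell as well (last section). Clu rose by 1.01 ± 0.11, from 81.0 to 160 CPM in batch 1 to 138 to 290 CPM in batch 2. Gfap rose by 1.08 ± 0.13, from 21.6 to 57.9 CPM to 52.6 to 101 CPM. Apoe was at 200 to 477 CPM in batch 1 and at 503 to 855 CPM in batch 2, without overlap. How many of all genes had such ranges was not counted. Hopx rose by 0.93 ± 0.15, and Nes fell by 0.56 on the log2 scale (SE 0.10). Here 11 of 18 astrocyte genes rose and 3 fell (median 0.25), against 5 of 13 stem cell genes that rose and 1 that fell (median 0.04). Hes5 did not pass (0.13), with 14.5 to 25.1 CPM in batch 1 and 15.95 to 30.2 CPM in batch 2.

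Of the members, 18 passed in both comparisons and all 18 kept their direction, 14 higher and 4 lower. They were 81.8% of the members called in Control animals and 72.0% of those called in LDHA/B+CRMP1+STIP1 animals. Over all genes tested in both, 3792 passed in the same direction, 73.4% and 73.5% of the respective calls. With counts summed per litter and with litter as a random effect, 9 of the 18 passed in both comparisons. These were Nes, Hopx, Fabp7, Gfap, Clu, Apoe, Ndrg2, Id3 and Nfia. All of them but Fabp7 also passed in every alternative run of both comparisons. Fabp7 did not pass in LDHA/B+CRMP1+STIP1 animals without the libraries that stand apart. The matching share over all genes was not computed, so these 9 have no background beside them.

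**Figure D1:**
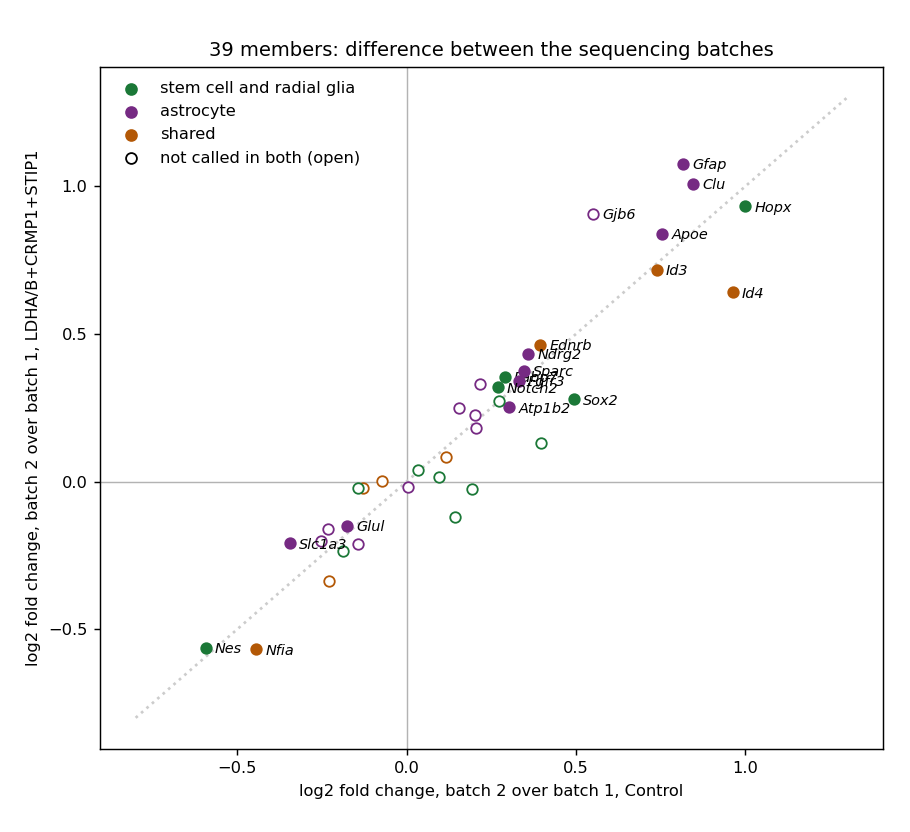
Log2 fold change of each of the 39 members between batch 2 and batch 1 in Control animals (horizontal axis, 12 against 12) and in LDHA/B+CRMP1+STIP1 animals (vertical axis, 9 against 16), with filled points for the 18 genes that passed FDR under 0.1 in both. Gfap, Clu, Hopx, Apoe, Id3 and Id4 lie to the upper right, Nes and Nfia to the lower left, and the dotted line marks equal values.

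Some marker lists moved with the batches and others differed little. Median sums in Control animals of batch 1 and batch 2 were 559 and 560 CPM for oligodendrocyte lineage genes. They were 82.1 and 79.95 CPM for microglia genes, and 316 and 311 CPM for endothelium genes. For the 2 intermediate progenitor genes in the table, led by Neurod1, they were 20.4 and 45.2 CPM. Markers of some neighbouring tissues moved further. All 12 choroid plexus genes were higher in batch 2 in both comparisons, and their summed level in Control animals was 29.96 to 139 CPM in batch 1 and 174 to 3119 CPM in batch 2, led by Ttr, with no marker at 0 in every animal. The 7 ependyma genes in the table were all higher, with sums of 12.9 to 39.95 CPM and 34.5 to 116 CPM. The 7 thalamus genes in the table, led by Tcf7l2, were all higher, with sums of 31.9 to 167 CPM and 323 to 819 CPM. Of 10 proliferation genes, 5 were lower in Control animals and 7 in LDHA/B+CRMP1+STIP1 animals. The part of these tissues in the members' differences was not tested.

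Lists beside the members were mixed between batches. In Control animals 21.3% of all genes tested passed as higher in batch 2 and 20.2% as lower. Several of the counts below lay near these shares, and no list was tested against them. Of 29 other astrocyte genes tested, 10 rose and 6 fell in Control animals. Agt, the angiotensin precursor that astrocytes of some brain regions make, rose by 2.10 on the log2 scale, and Gpc5, a glypican, fell by 0.65. Of 22 other stem cell and radial glia genes, 6 rose and 4 fell. Fgfr1, a growth factor receptor, rose by 0.46, and Ccnd2, the cyclin of dividing progenitors, fell by 0.60 on the log2 scale. Of 25 other Notch pathway genes 6 rose and 7 fell, and of 24 genes of bone morphogenetic protein and gp130 signalling 6 rose and 8 fell, among them Smad7, an inhibitor of that signalling, which fell by 0.55 on the log2 scale.

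**Figure D2:**
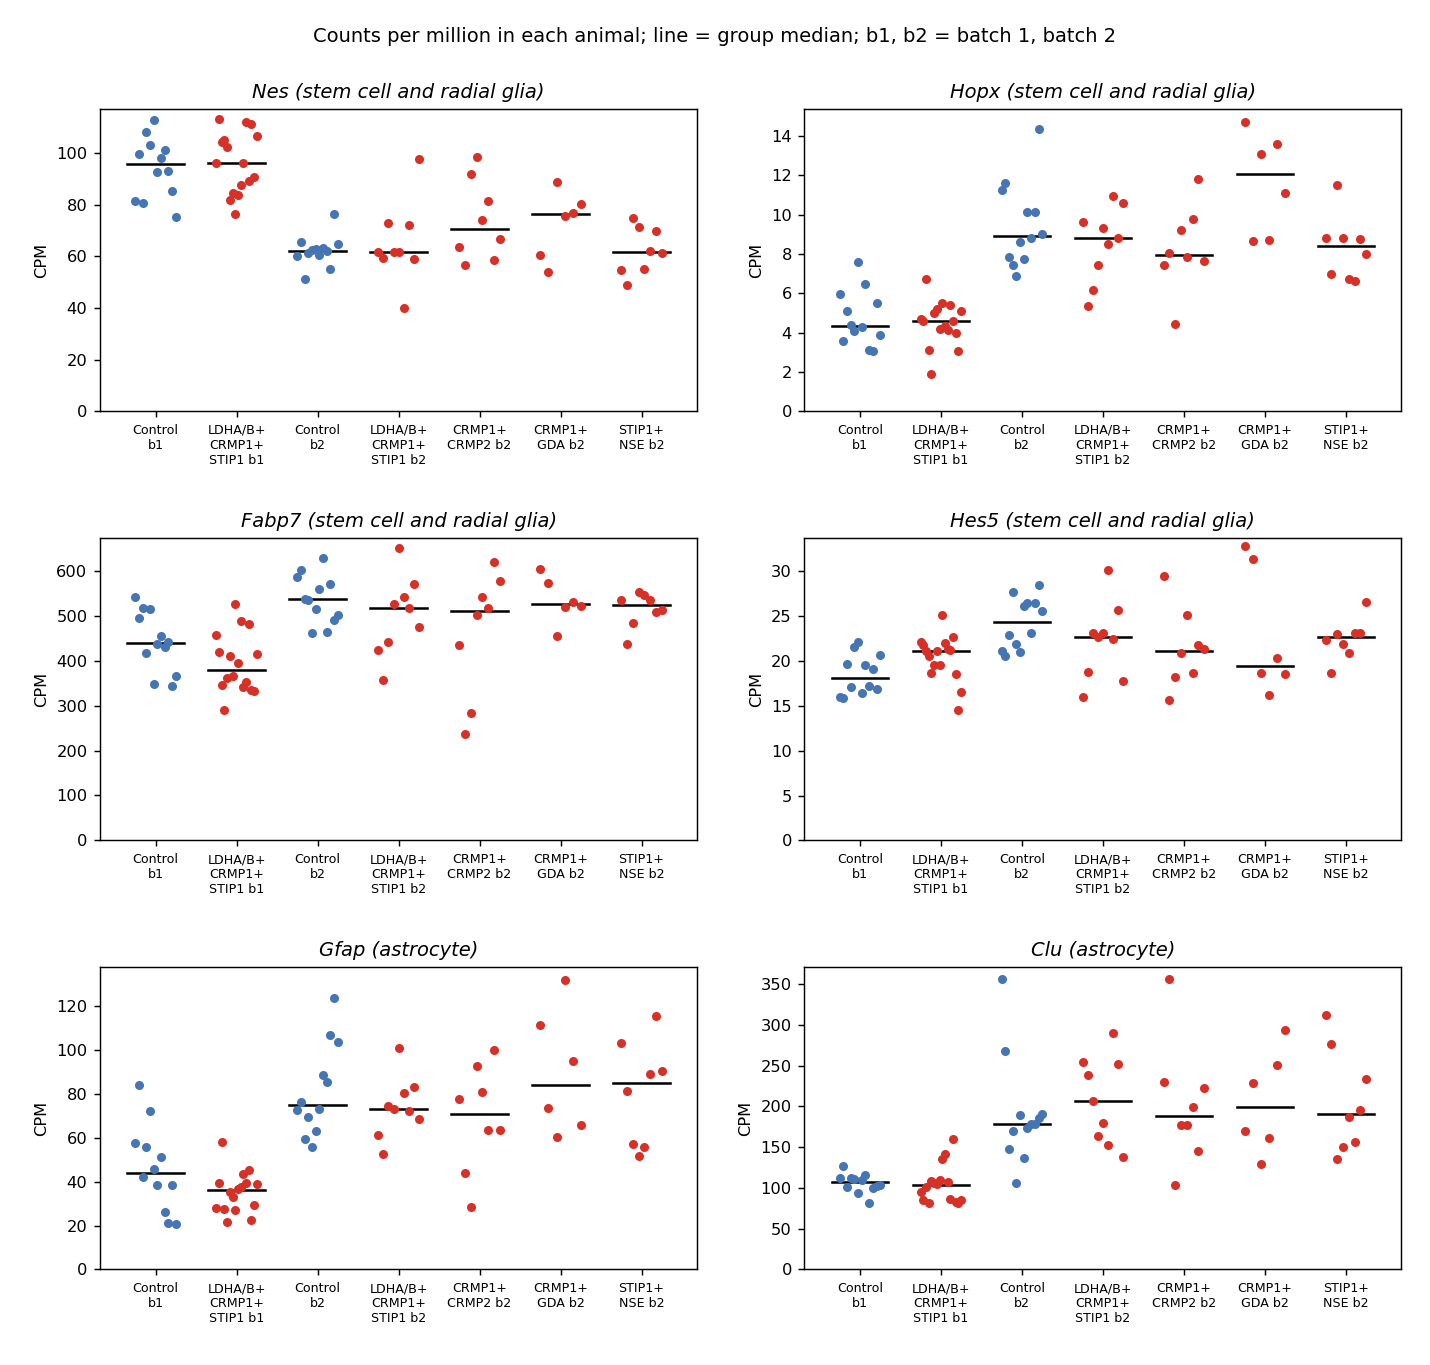
CPM of 6 members in each of the 71 animals by group and batch (b1, b2), with blue points for Control, red points for exposed animals and a line at each group's median. Nes is lower, and Hopx, Gfap and Clu are higher, in the batch 2 groups than in the batch 1 groups, while exposed and Control animals of a batch overlap in every panel.

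To compare stem cell with astrocyte genes directly, the mean of log2(CPM + 1) over each list was taken in each animal. The astrocyte mean was 6.53 ± 0.25 (SD, n = 12) in Control animals of batch 1 and 6.75 ± 0.25 (n = 12) in batch 2. The stem cell mean was 5.45 ± 0.08 and 5.61 ± 0.18 in the same animals. The astrocyte mean minus the stem cell mean was then 1.08 ± 0.20 in batch 1 and 1.15 ± 0.10 in batch 2, a difference of 0.07 that is smaller than the spread between animals. In LDHA/B+CRMP1+STIP1 animals it was 0.97 ± 0.12 (n = 16) in batch 1 and 1.17 ± 0.12 (n = 9) in batch 2, a difference of 0.20 against a pooled SD of 0.12. In the other exposed groups of batch 2 it was 1.11 ± 0.17 for CRMP1+CRMP2 (n = 8), 1.17 ± 0.25 for CRMP1+GDA (n = 6) and 1.19 ± 0.29 for STIP1+NSE (n = 8), all overlapping the batch 2 Control range of 0.94 to 1.31. These list means are a description with no test. The stem cell mean lay closest together in CRMP1+GDA animals (5.67 to 5.79), while it ran from 5.17 to 5.85 in batch 2 Control animals and from 5.27 to 5.93 in CRMP1+CRMP2 animals.

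Few members differed between exposed and Control animals. In the 47 MARA-AB animals against 24 Control animals, with the first surrogate variable in the model, 0 of 39 members passed FDR under 0.1, as did 0.0321% of all 12477 genes, and 0 members passed with DESeq2 or any other alternative run. At an unadjusted p under 0.05 there were 4 members of 39, where 10.3% of all genes lay there, so that share is near the background and is no result about the members. These were Glul (-0.11 ± 0.04), Nfib (0.19 ± 0.08), Fabp7 (-0.13 ± 0.05) and Aqp4 (-0.17 ± 0.07), with edgeR adjusted p from 0.352 to 0.384. The median log2 difference was 0.04 over the stem cell genes and -0.03 over the astrocyte genes, and 13 of 18 astrocyte genes and 23 of 29 other astrocyte genes lay below 0, as did 6013 of all 12477 genes. In batch 2 alone the astrocyte genes did not lean that way, with 8 of 18 below 0 and a median of 0.02, while 21 of the 29 other astrocyte genes lay below 0. In the same comparison all 12 choroid plexus genes lay above 0, with a median of 0.84 and 8 of 12 at an unadjusted p under 0.05. In batch 2 alone their median was 0.38 with 0 of 12 there, and their part in the members' values was not tested.

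CRMP1+CRMP2 was the pattern with members past the threshold. Against 24 Control animals 5 of 39 members passed (12.8%), which is close to the 11.4% of all 12691 genes that passed and so is no result about the members as a group. With counts summed per litter, or with litter as a random effect, 0 members and 0 of all genes passed. Both litter fits had batch in place of the surrogate variable, with sex added in the random effect fit. With batch and sex as covariates and no litter term, 1 of the 5 calls stayed, and calls over all genes also fell (last section). How much of the loss went with litter was not tested. The 5 calls were 2 higher members (5.13%, all genes 4.83%) and 3 lower ones (7.69%, all genes 6.56%). Notch2 rose by 0.47 ± 0.10 (edgeR adjusted p = 0.00839). It ranged from 31.6 to 45.7 CPM in batch 1 Control animals, from 32.9 to 61.0 CPM (median 50.4) in batch 2 Control animals and from 44.2 to 100 CPM (median 64.0) in CRMP1+CRMP2 animals. The exposed median lay above the highest Control animal, and the ranges overlapped. Nfib rose by 0.41 ± 0.12 (edgeR adjusted p = 0.0481), at 48.5 to 123 CPM (median 70.7) in batch 1 Control animals, 41.98 to 77.4 CPM (median 58.6) in batch 2 Control animals and 55.4 to 107 CPM (median 78.4) in CRMP1+CRMP2 animals, so the highest animal was a batch 1 Control.

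Glul fell by 0.32 on the log2 scale (SE 0.08, edgeR adjusted p = 0.0292). Its level was 377 to 560 CPM in batch 1 Control animals, 328 to 515 CPM (median 422) in batch 2 Control animals and 300 to 405 CPM (median 370) in CRMP1+CRMP2 animals, so the exposed animals lay in the lower part of the Control range and below it. Sox2 fell by 0.35 (SE 0.11, edgeR adjusted p = 0.0569), with 66.2 to 126 CPM in batch 1 Control animals, 64.3 to 153 CPM in batch 2 Control animals and 47.4 to 141 CPM in CRMP1+CRMP2 animals. Ndrg2 fell by 0.21 (SE 0.07, edgeR adjusted p = 0.0837), with 115 to 189 CPM, 131 to 209 CPM and 101 to 198 CPM in the same order. The median over the astrocyte genes was -0.04 and that over the stem cell genes was 0.00. Of 29 other astrocyte genes 10 fell and 0 rose, led by Gpr37l1, an astrocyte receptor (-0.58, edgeR adjusted p = 0.0130), Mt3, a metallothionein (-0.62), and Aldoc, an aldolase (-0.31), where 6.56% of all genes were lower. Against batch 2 Control animals alone, and in both litter fits, 0 of these 29 passed. Among the other stem cell genes Ddah1 fell by 0.28 on the log2 scale.

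These 5 calls depended on which litters and libraries were kept. Without the litter of dam 9_6, or without the libraries that stand apart (4 of the 8 CRMP1+CRMP2 libraries), 0 members passed, and all 5 kept their direction. Notch2 was then 0.34 (edgeR adjusted p = 0.178) and 0.27 (edgeR adjusted p = 0.434). The calls over all genes also fell to few in these 2 settings (last section). All 5 members passed without dam 9_1 or without dam 9_16, and 3 of them passed without dam 9_11. Against the Control animals of batch 2 alone 0 members passed, as did 1.01% of all genes, and 10 of 39 lay at an unadjusted p under 0.05 beside 20% of all genes. Notch2 was 0.41 ± 0.13, Nfib 0.42 ± 0.12 and Glul -0.23 ± 0.07 in that fit. The 12 choroid plexus genes summed to 251 to 3663 CPM in CRMP1+CRMP2 animals and 11 of them passed as higher (median 1.71), as did 7 of 7 pineal genes tested. Against batch 2 Control animals alone, whose choroid plexus sums were 174 to 3119 CPM, 0 of 12 choroid plexus genes passed (median 0.50) and 2 of 7 pineal genes did. The part of these tissues in the members' values was not tested.

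**Figure D3:**
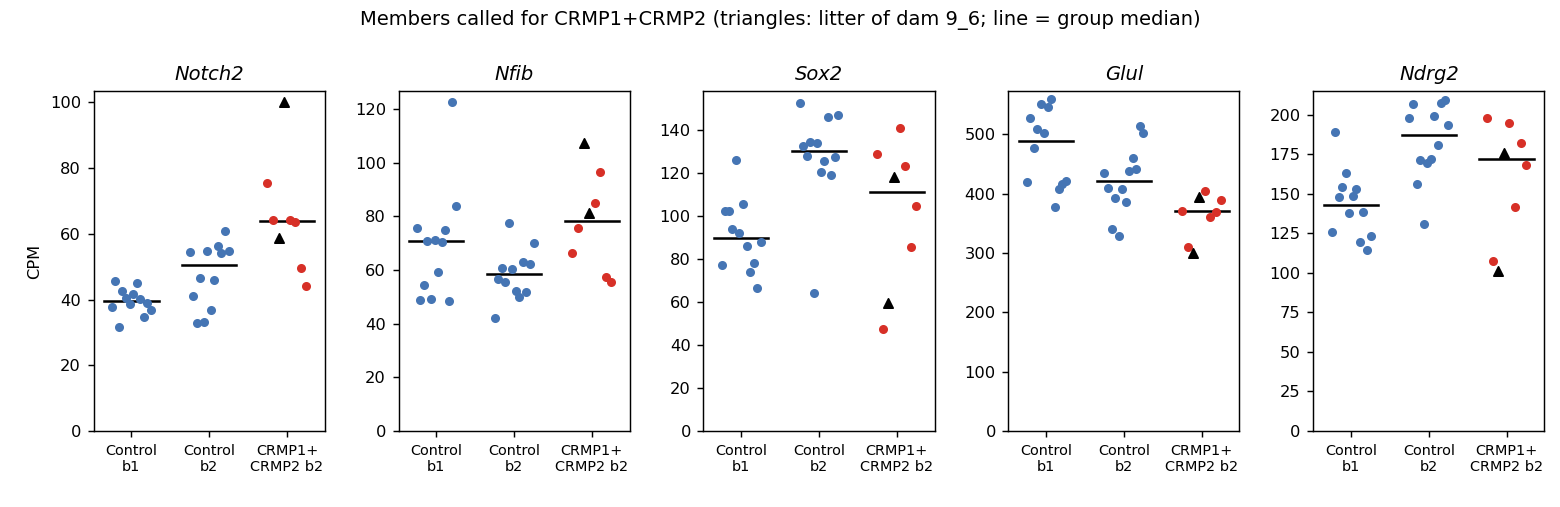
CPM per animal of the 5 members that passed for CRMP1+CRMP2, in Control animals of batch 1 and batch 2 (12 each) and in the 8 CRMP1+CRMP2 animals, with triangles for the 2 pups of dam 9_6 and a line at each median. In every panel the CRMP1+CRMP2 points overlap the batch 2 Control points, and a triangle is the highest CRMP1+CRMP2 point for Notch2 (100 CPM) and for Nfib (107 CPM).

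Whether the CRMP1+CRMP2 values stood apart from the other patterns was tested within batch 2, against the 23 animals of the other 3 patterns. No member passed (0 of 39, edgeR), nor did any other gene (0%), and 3 members lay at an unadjusted p under 0.05 beside 11.8% of all genes. They were Glul (-0.16 ± 0.06), Nfib (0.33 ± 0.12) and Notch2 (0.30 ± 0.12), each with an edgeR adjusted p of 0.411.

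The other patterns had no member past the threshold under edgeR, DESeq2 or any alternative run. For LDHA/B+CRMP1+STIP1 0 of 39 passed (0.0157% of 12700 genes did), and 3 lay at an unadjusted p under 0.05, beside 7.17% of all genes. These were Aqp4 (-0.18 ± 0.07), Fabp7 (-0.12 ± 0.05) and Hes1 (0.15 ± 0.07). Aqp4 was 86.6 to 174 CPM in Control and 81.8 to 146 CPM in exposed animals of batch 1, and 81.6 to 202 CPM and 96.4 to 166 CPM in batch 2. Within batch 1 alone 0 members passed (all genes 0.0161%) and 6 lay at an unadjusted p under 0.05 (all genes 5.45%), and within batch 2 alone 0 passed (all genes 0%) and 0 lay there (all genes 5.62%). The difference of the LDHA/B+CRMP1+STIP1 effect between batches passed for 0 members (all genes 0.110%), and Hes5 was the 1 member at an unadjusted p under 0.05 (-0.27 ± 0.12, all genes 3.05%).

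For CRMP1+GDA 0 members passed (0 of 12641 genes, or 0%, did) and 0 lay at an unadjusted p under 0.05, beside 3.65% of all genes. The largest member difference there was that of Gjb6 at 0.44. For STIP1+NSE 0 members passed (all genes 0.0474%) and 1, Sox2 (-0.20 ± 0.09), lay at an unadjusted p under 0.05, beside 3.19% of all genes. The patterns share the 24 Control animals, so likeness between them was not measured. For the astrocyte filament Gfap the log2 difference was -0.21 ± 0.15 for the CRMP1+CRMP2 animals and -0.18 ± 0.10 for the LDHA/B+CRMP1+STIP1 animals, and for CRMP1+GDA and STIP1+NSE it was -0.04 ± 0.18 and -0.10 ± 0.17. For Hes5 they were -0.13 ± 0.08, 0.04 ± 0.05, -0.10 ± 0.12 and -0.12 ± 0.08 in the same order. For Nes they were 0.07 ± 0.12, 0.01 ± 0.06, 0.18 ± 0.12 and -0.06 ± 0.10.

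**Figure D4:**
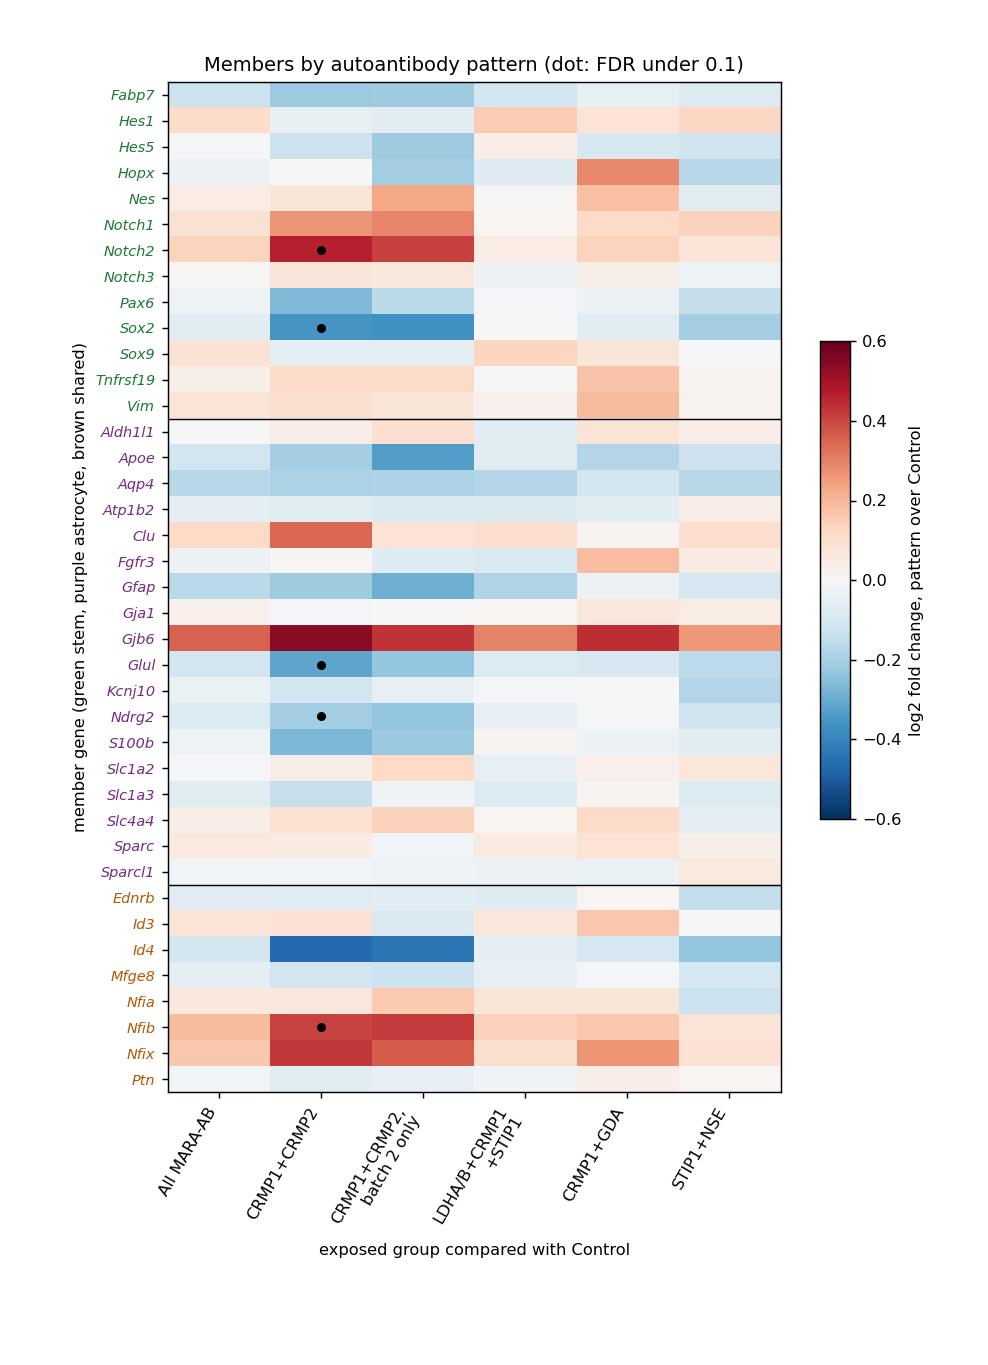
Log2 fold change of each member over Control for all MARA-AB animals and for each pattern, with CRMP1+CRMP2 also against batch 2 Control animals alone, and dots where FDR was under 0.1. The 5 dots (Notch2, Sox2, Glul, Ndrg2, Nfib) are in the CRMP1+CRMP2 column, and the same column against batch 2 alone holds 0.

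Sex was read in the same way. In 35 males against 36 females 0 members passed (edgeR, all genes 0.0641%), 0 passed under DESeq2, and 2 lay at an unadjusted p under 0.05, beside 4.69% of all genes. They were Pax6 (0.21 ± 0.09) and Notch3 (0.12 ± 0.06), both with an edgeR adjusted p of 0.987. With sexes compared within litters 0 members passed.

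Litters of one batch and treatment still differed. In the 24 Control animals, with batch means removed, a median of 57.6% of the variance of the 18 astrocyte genes lay between litters, against 41.6% for the 13 stem cell genes, 34.2% for the 8 shared genes and 39.9% for all 12477 genes tested. Litters held 22.7% of the degrees of freedom. Of the 18 astrocyte genes 16 lay above the median of all genes, Aldh1l1 (19.6%) and Kcnj10 (39.8%) being the others, as did 8 of the 13 stem cell genes. Glul reached 74.9%, Fgfr3 72.9%, Gfap 71.7% and Clu 70.0%, while Nes stood at 19.6%, Nfia at 20.1% and Id4 at 21.8%. Gfap averaged 60, 51.9 and 26.6 CPM in the litters IgG1, IgG2 and RNA4 of batch 1, and 74.5, 61.9, 80.9 and 105 CPM in the litters 9_5, 9_10, 9_15 and 9_25 of batch 2. Litter 9_10 was all female and litter 9_25 all male, so litter and sex cannot be told apart in that pair.

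**Figure D5:**
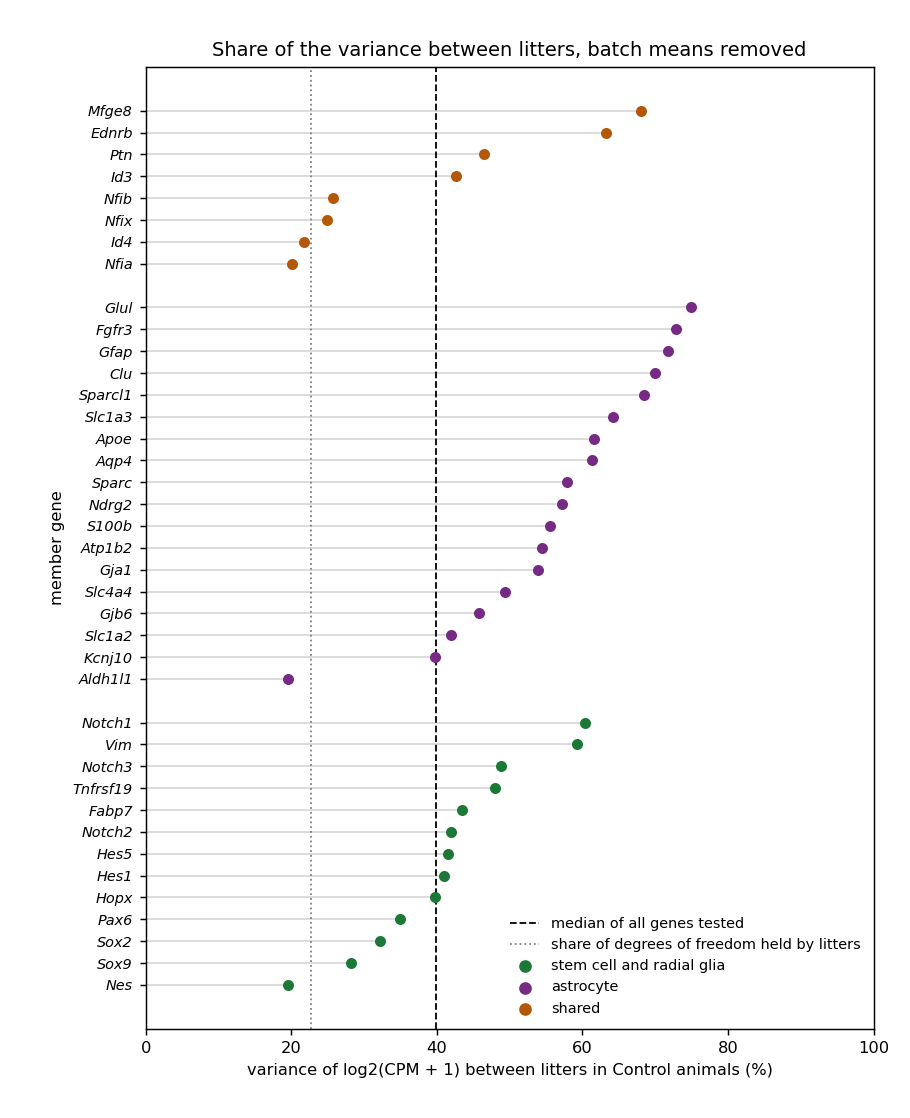
Share of the variance of log2(CPM + 1) between litters for each member in the 24 Control animals of 7 litters, with batch means removed, coloured by list. The dashed line is the median of all genes tested (39.9%) and the dotted line the share of the degrees of freedom held by litters (22.7%), and 16 of the 18 astrocyte points lie to the right of the dashed line.

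Astrocyte genes also varied together from animal to animal. With the mean of each group and batch removed, Pearson's r over the 71 animals had a median of 0.48 over the 153 pairs of astrocyte genes, 0.21 over the 78 pairs of stem cell genes, 0.23 between the lists and 0.00 over all pairs of genes tested. The animals share libraries, litters and dissections, so these values are a description with no test. The most alike pair was Sox2 with Id4 (r = 0.87), followed by Gja1 with Sparc (0.86) and S100b with Ndrg2 (0.85). Of the stem cell genes, Notch3 sat closest to the astrocyte genes (median r 0.50), while Nes (0.00) and Notch1 (0.01) varied apart from them. Nfia went with Nfib (0.81) and Nfib with Nfix (0.72). Nfib and Nfix had a median r of -0.33 and -0.40 with the astrocyte genes, the lowest pairs being Nfib with Apoe (-0.77) and Nfix with Ndrg2 (-0.71), while Nfia had a median of -0.02.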

How the data were processed

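Whole-number counts per gene, unnormalized, were deposited by the authors for 17494 genes and 71 samples. The authors aligned paired reads of 150 bases from poly-A libraries to build rn7 with STAR 2.5.4b and counted them with featureCounts, whose options are not given in the sources used here. The other deposited column was exon length in bases, used for RPKM. No exon of a member overlapped another gene of the table. Among counts from 1 to 9, 74.5% were even, and halved counts were tried. The lowest mean chi-square per gene between animals of a group was 5.63, so no library duplicated another of its group. Libraries of different groups were not compared in this way. Group, dam and sex came from the labels and batch, which no label names, from the kind of title, and 0 columns were unmapped. The series design text names frontal cortex and hypothalamus, the sample labels the hippocampal slice.

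Differential expression used edgeR 4.0.16 (TMM, robust quasi-likelihood) in R 4.3.3, over genes with at least 1 CPM in 8 samples (all MARA-AB animals, sex) or over 1 CPM in 2 samples (patterns, batches). The fits of each pattern and of all MARA-AB animals each had 1 surrogate variable of their own (sva 3.50.0). In the fit of all MARA-AB animals batch held 0.838 of its variance, and this share was not computed for the patterns. FDR was set at 0.1. Fits with other covariates, within a batch alone, with counts summed per litter or with litter as a random effect held no surrogate variable. Alternatives were DESeq2 1.42.0, median-ratio size factors, no filter, other covariates, a batch alone, counts summed per litter, litter as a random effect (limma 3.58.1), litters left out, and, added after seeing the data, the libraries that stand apart left out, sex with litter as a fixed block, and the 2 tests between batches and between patterns. The code was tested on simulated data. All 39 members are named. Of other lists at most 4 called genes with the smallest p, and of marker lists also the most abundant gene, are named. Members and lists were chosen with earlier results of these data known. Listed genes absent from the comparisons were not analysed here. At these depths 1 CPM is 24.9 to 36.2 counts before TMM factors, and the filter used CPM without these factors.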

Additional observations from a re-analysis of the deposited data

Results flagged for a closer look

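In the groups of 6 to 9 animals, 156 pairs of member and group were looked at for an animal far from the rest (Dixon's criterion), and 7 were met, where chance gives about 1 in 20. The pup CRMP1+GDA 4 of dam 9_8 was the highest of its 6 for Notch3 (130 CPM, next 99.8), Slc1a2 (81.1 CPM, next 51.2) and Slc4a4 (96.3 CPM, next 46.3). Its littermate CRMP1+GDA 3 was the lowest for Apoe (396 CPM, next 639). Animal STIP1+NSE 3 of dam 9_7 was the highest for Hopx (11.5 CPM, next 8.81) and the lowest for Atp1b2 (258 CPM, next 302). LDHA/B+CRMP1+STIP1 9, the 1 pup of dam 9_24, was the highest of the batch 2 animals of its pattern for Nfib (89.3 CPM, next 69.1). CRMP1+GDA 4 (posterior Hox sum 120.4 CPM) and STIP1+NSE 3 (pineal sum 49.6 CPM, posterior Hox sum 8.49 CPM) are libraries that stand apart. No cause of the flagged values was tested.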

How the results depend on the processing

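For all MARA-AB animals, LDHA/B+CRMP1+STIP1, CRMP1+GDA, STIP1+NSE and sex, the count of members called was 0 under every alternative run. For CRMP1+CRMP2 the count of 5 became 1 with batch and sex as covariates, 2 with no covariate, and 0 with batch 2 alone, with counts summed per litter, with litter as a random effect and without the libraries that stand apart, and it ranged from 0 to 10 as each litter was left out (0 without dam 9_6, 10 without dam 9_16). DESeq2 gave 7. Over all genes its 1445 calls became 491 with those covariates, 127 in batch 2 alone, 0 in both litter fits, 1 without the libraries that stand apart, and 41, 799 and 2889 without dams 9_6, 9_11 and 9_16. The 22 members called between batches in Control animals became 12 with counts summed per litter and ranged from 19 to 25 as litters were left out, and the 5218 calls over all genes became 1968 with summed counts and 2833 with litter as a random effect. The 25 called in LDHA/B+CRMP1+STIP1 animals became 16 with counts summed per litter and 15 without the libraries that stand apart, and the 5178 calls over all genes became 2294 with summed counts. For LDHA/B+CRMP1+STIP1 against Control the 2 calls over all genes became 215 without the libraries that stand apart, and the other comparisons had at most 16 under any alternative run. No called member changed direction under any alternative run. The astrocyte minus stem cell difference between batches in Control animals was 0.07, and 0.11 with Slc1a3, Sox9 and Vim among the shared genes, within 1 SD of animals. In LDHA/B+CRMP1+STIP1 animals the difference was 0.20, and 0.23 with the same change, each above the pooled SD of 0.12. The causes of these changes were not tested. No paired analysis was possible because the replicate numbers only name animals, so no pairing or replicate block links exposure groups or batches, while with sexes compared within litters (litter as a fixed block) the count was 0. Depth limits Gjb6 most, whose lowest value was 0.0800 CPM.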
